A study of Danio rerio with 24 samples.

Results

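Blood stem cell transcription factors were read in RNA of sorted zebrafish cells. The group was set by 10 gene names: runx1, myb, gata2a, gata2b, tal1, lmo2, gfi1aa, gfi1b, ikzf1 and lyl1. The deposited table of 25067 genes held 9 of these 10 names, and lyl1, a basic helix-loop-helix relative of tal1, had no row under that name and was not analysed here. All 9 passed the filter on low values of at least 1 FPKM (fragments per kilobase of gene, scaled to the library total) in at least 2 libraries.

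These factors form the core of the program that makes and keeps blood stem cells. Runx1 acts in the hemogenic endothelium from which the first definitive stem cells bud, Myb keeps the resulting hematopoietic stem and progenitor cells (HSPCs) dividing, and Tal1, Lmo2 and a GATA factor bind DNA as one complex that also serves the red cell lineage. Zebrafish carry a pair of Gata2 paralogs, of which gata2b is known for the hemogenic endothelium and gata2a for vascular endothelium and neurons. Gfi1aa and Gfi1b are zinc-finger repressors whose mouse counterparts shut off endothelial genes as blood cells form, and Ikaros, encoded by ikzf1, is a zinc-finger factor of lymphoid and other blood progenitors.

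Poly(A) RNA was sequenced in 24 libraries, 12 groups of 2. HSPCs, endothelial cells (EC) and double-negative cells (DN) were sorted from tails of Tg (kdrl:mCherry/CD41:GFP) fish, which carry both transgenes. The stages were 36 hours after fertilization (hpf), then 3 and 4 days (dpf), with DN cells at 52 hpf as well. HSPC and DN cells were sorted from kidney marrow of CD41:GFP fish at 3 months (mpf). That label names no kdrl reporter, so the kidney DN sort may not match the tail DN sort. Between kidney and tail libraries age, organ, fish line and sort cannot be told apart. The kdrl reporter marks endothelium and the CD41 reporter marks HSPCs and thrombocytes, so the HSPC sort can hold both. Titles name the caudal hematopoietic tissue, the site in the tail where HSPCs expand, from 52 hpf on and not at 36 hpf, so stage and dissection cannot be told apart there. The labels do not say whether the replicates came from separate clutches, so the p-values reflect no more than the scatter among these samples, which may be technical.

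Recovered reads numbered 1741360 to 21338170 per library. EC 4 dpf replicate 2 had 2483 genes above 0 and HSPC 4 dpf replicate 2 had 11265, with 43.85% of FPKM on mitochondrial genes, against 13274 genes or more in the other libraries. These are the low-complexity libraries, and the EC and HSPC 4 dpf groups carried 75.41% to 94.26% of the residual sum of squares of 7 of the 9 factors, all but myb (14.6%) and gfi1aa (43.83%). Calls are therefore given for the fit of all 24 libraries and for the fit of the 22 others. The HSPC 3 dpf libraries had the next fewest genes above 0 (13459 and 13274) and stayed in both fits. DN 3 mpf replicate 1 followed with 17054 genes. The label EC was at odds with the data after 36 hpf: kdrl was at 5.16 and 3.68 FPKM (36 hpf), 0.333 and 0.323 (3 dpf) and 0.163 and 0 (4 dpf), while itga2b, which encodes CD41, stood in HSPC libraries at 6.54 and 7.98 FPKM and in EC-labelled libraries at 6.55 and 5.72 FPKM at 3 dpf. At 36 hpf itga2b was at 0.428 and 0 FPKM in HSPC libraries. Directions drawn from these libraries carry that limit.

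**Figure D1:**
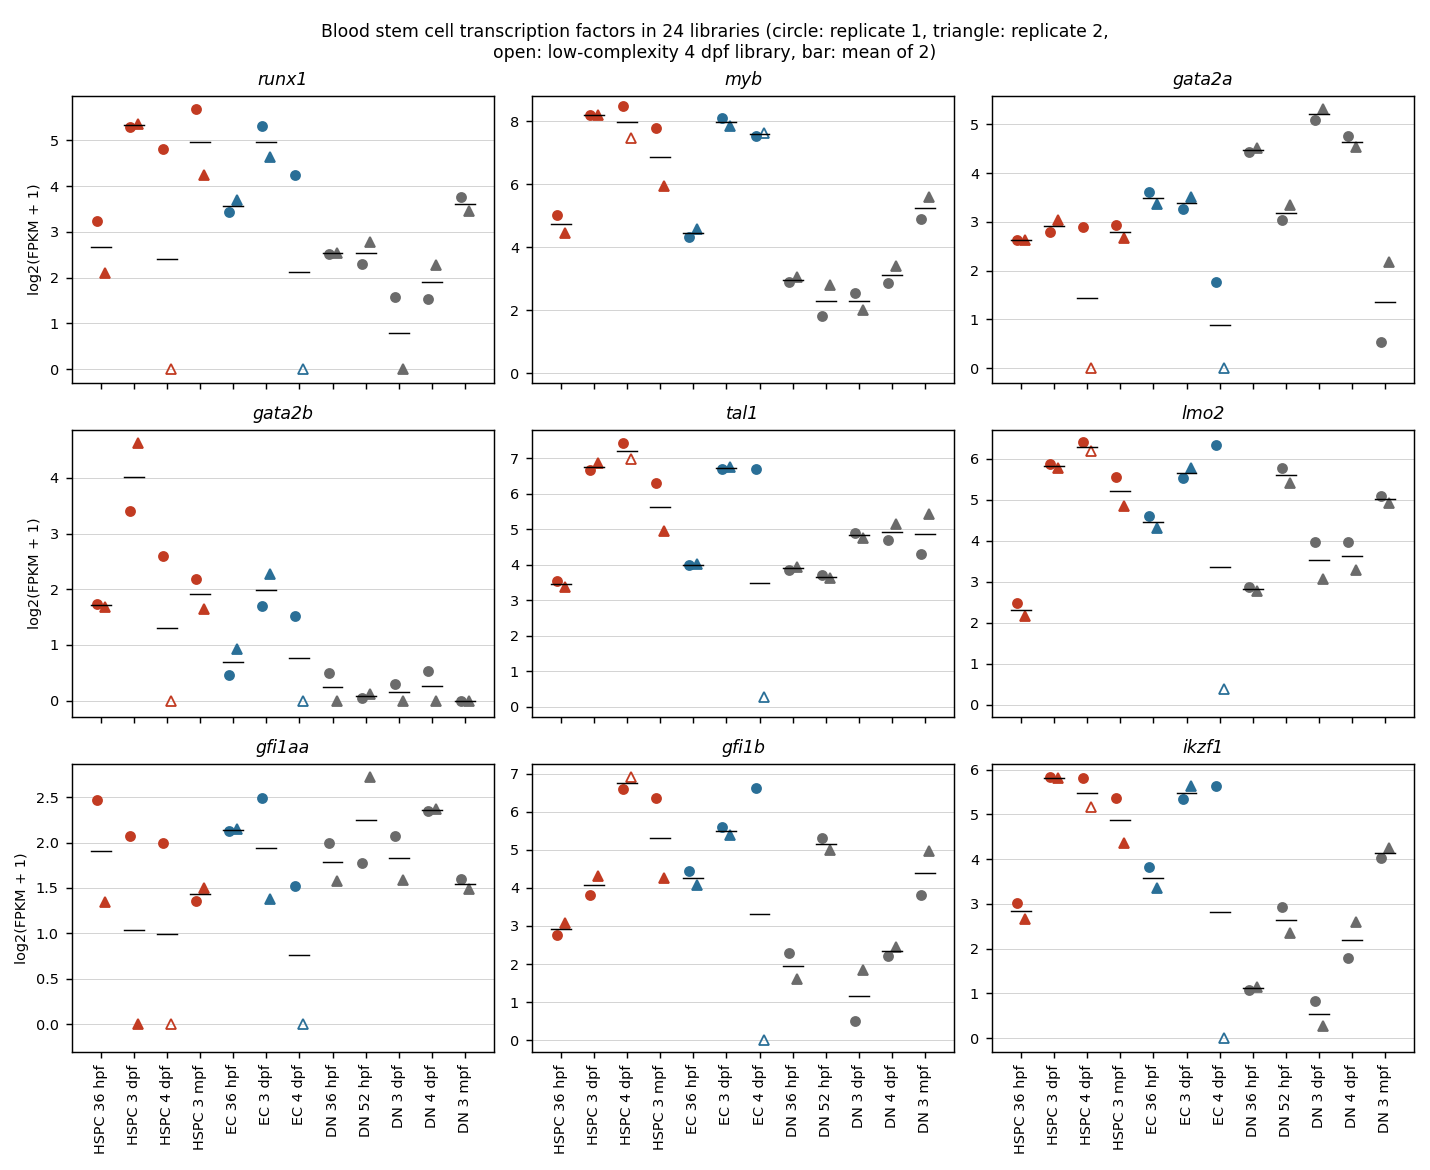
Each panel plots one factor as log2(FPKM + 1) in the 24 libraries by sort and stage, with replicate 1 as a circle, replicate 2 as a triangle, low-complexity 4 dpf libraries as open symbols and bars for the mean of 2. Runx1, myb, tal1, lmo2 and ikzf1 are high in HSPC and EC-labelled libraries at 3 dpf, gata2a is highest in DN libraries at 3 dpf, and gfi1aa stays at or below 5.61 FPKM throughout.

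Runx1 and myb were low in every tail DN library and high in HSPC and EC-labelled libraries at 3 dpf; at 4 dpf runx1 was listed at 0 in both low-complexity libraries. In HSPC libraries runx1 was at 8.39 and 3.31 FPKM (36 hpf), 38.2 and 40.2 (3 dpf), 27.1 and 0 (4 dpf) and 50.8 and 18.0 (3 mpf). In EC-labelled libraries runx1 was at 9.75 and 12.03 FPKM (36 hpf), 38.9 and 23.7 (3 dpf) and 17.8 and 0 (4 dpf). In DN libraries runx1 was at 4.76 and 4.80 FPKM (36 hpf), 3.94 and 5.84 (52 hpf), 1.96 and 0 (3 dpf), 1.89 and 3.83 (4 dpf) and 12.6 and 9.90 (3 mpf). At 3 dpf both sorts stood above both DN libraries without overlap, whereas at 36 hpf the HSPC values lay on both sides of the DN values. Few reads lie behind these levels, since 1 read of runx1 was worth 5.85 times as many FPKM as 1 read of tal1. The reads of runx1 numbered 0 to 490 per library, with a median of 52, and a count of 0 in DN 3 dpf replicate 2 allows up to 0.630 FPKM (3 reads, for counting error only).

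Myb was read far more deeply, with 106 to 16963 reads per library. In HSPC libraries myb was at 31.4 and 20.7 FPKM (36 hpf), 294 and 291 (3 dpf), 355 and 177 (4 dpf) and 219 and 60.8 (3 mpf). In EC-labelled libraries myb was at 19.2 and 23.1 FPKM (36 hpf), 271 and 227 (3 dpf) and 184 and 197 (4 dpf). In DN libraries myb was at 6.40 and 7.35 FPKM (36 hpf), 2.51 and 6.03 (52 hpf), 4.92 and 3.03 (3 dpf), 6.25 and 9.50 (4 dpf) and 28.9 and 46.9 (3 mpf). Every HSPC and EC-labelled library held more myb than every DN library of the same stage, the low-complexity libraries included. By group mean myb ran from HSPC at 3 dpf (292 FPKM) through HSPC at 4 dpf and EC-labelled libraries at 3 dpf down to DN at 3 dpf (3.98 FPKM), and 7 of the 11 neighbouring groups in that order overlapped. For runx1 10 of 11 neighbouring groups overlapped.

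At 36 hpf and 3 dpf gata2b was higher and gata2a lower in HSPC than in DN libraries, while in kidney both paralogs were higher in HSPC libraries. In HSPC libraries gata2b was at 2.34 and 2.20 FPKM (36 hpf), 9.56 and 23.8 (3 dpf), 5.05 and 0 (4 dpf) and 3.55 and 2.13 (3 mpf). In EC-labelled libraries gata2b was at 0.370 and 0.893 FPKM (36 hpf), 2.25 and 3.81 (3 dpf) and 1.87 and 0 (4 dpf). In the 10 DN libraries gata2b reached at most 0.438 FPKM and was listed at 0 in replicate 2 at 36 hpf, 3 dpf and 4 dpf and in both kidney libraries. The HSPC libraries at 3 dpf thus held the highest gata2b of all groups, with no overlap with the next group, although their replicates lay far apart. The median over all libraries was 10 reads of gata2b.

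In HSPC libraries gata2a was at 5.21 and 5.15 FPKM (36 hpf), 5.90 and 7.22 (3 dpf), 6.43 and 0 (4 dpf) and 6.60 and 5.40 (3 mpf). In EC-labelled libraries gata2a was at 11.2 and 9.30 FPKM (36 hpf), 8.58 and 10.3 (3 dpf) and 2.40 and 0 (4 dpf). In DN libraries gata2a was at 20.7 and 22.001 FPKM (36 hpf), 7.17 and 9.13 (52 hpf), 33.1 and 39.0 (3 dpf), 25.9 and 22.1 (4 dpf) and 0.450 and 3.50 (3 mpf). By group mean the order of gata2a among tail DN libraries was that of the 6 neural markers, all measured, whose FPKM summed to 1632 and 1472 (36 hpf), 606 and 649 (52 hpf), 2565 and 2398 (3 dpf) and 1742 and 1559 (4 dpf), and to 2.72 and 5.63 in kidney DN libraries. In HSPC libraries these markers summed to 349 and 358 FPKM at 36 hpf and 5.56 and 13.7 at 3 dpf, while gata2a stayed between 5.15 and 7.22 FPKM, and their part in gata2a was not tested. Gata2b made up 61.8% and 76.7% of the summed FPKM of both paralogs in HSPC libraries at 3 dpf, 20.8% and 27.0% in EC-labelled libraries at 3 dpf and at most 1.91% in DN libraries. At 36 hpf that share was 30.9% and 29.9% in HSPC and 3.20% and 8.76% in EC libraries, and in kidney HSPCs it was 35.0% and 28.3%. FPKM is per length, so these shares compare levels between genes, but reads of the paralogs may have been split by the counting.

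**Figure D2:**
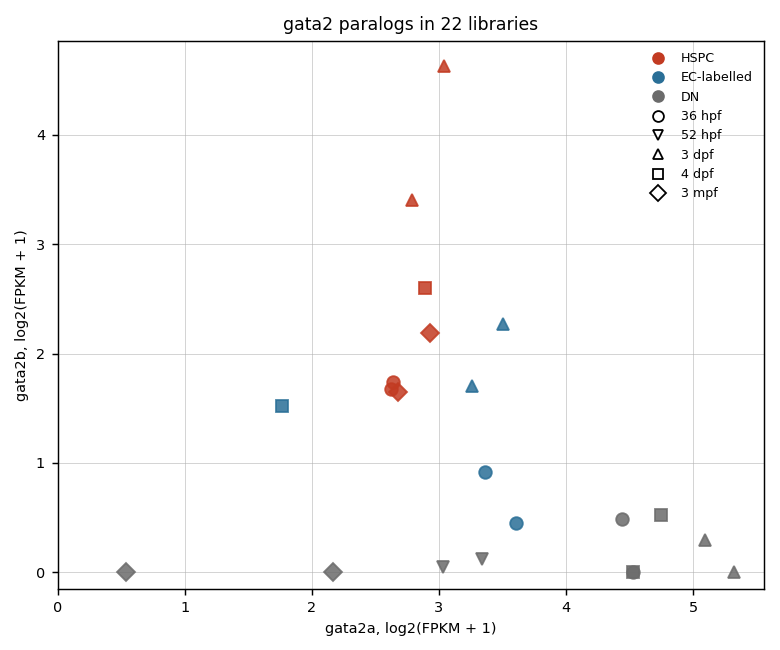
Gata2b is plotted against gata2a, both as log2(FPKM + 1), in the 22 libraries that are not of low complexity, with colour for the sort and symbol for the stage. The HSPC libraries at 3 dpf lie alone at the top (9.56 and 23.8 FPKM of gata2b), and the tail DN libraries lie along the bottom with 7.17 to 39.0 FPKM of gata2a.

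Tal1 and lmo2, whose products act in one DNA-binding complex with a GATA factor, were low in HSPC libraries at 36 hpf and high from 3 dpf. In HSPC libraries tal1 was at 10.7 and 9.42 FPKM (36 hpf), 99.9 and 115 (3 dpf), 172 and 125 (4 dpf) and 77.3 and 29.6 (3 mpf). In EC-labelled libraries tal1 was at 14.8 and 15.01 FPKM (36 hpf), 102 and 107 (3 dpf) and 103 and 0.217 (4 dpf). In DN libraries tal1 was at 13.4 and 14.4 FPKM (36 hpf), 12.1 and 11.2 (52 hpf), 28.7 and 26.1 (3 dpf), 25.0 and 34.3 (4 dpf) and 18.6 and 42.1 (3 mpf). Tal1 was thus present in every DN library at 11.2 FPKM or more, and at 36 hpf both HSPC values lay below both DN values.

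In HSPC libraries lmo2 was at 4.60 and 3.47 FPKM (36 hpf), 57.2 and 54.2 (3 dpf), 83.6 and 72.0 (4 dpf) and 45.9 and 28.1 (3 mpf). In EC-labelled libraries lmo2 was at 23.4 and 19.0 FPKM (36 hpf), 44.9 and 54.0 (3 dpf) and 80.1 and 0.318 (4 dpf). In DN libraries lmo2 was at 6.28 and 5.85 FPKM (36 hpf), 54.2 and 41.6 (52 hpf), 14.6 and 7.46 (3 dpf), 14.7 and 8.78 (4 dpf) and 33.2 and 29.4 (3 mpf). By group mean, HSPC at 36 hpf was the lowest group and HSPC at 4 dpf the highest for both tal1 and lmo2. The EC 4 dpf mean includes its low-complexity replicate, and lmo2 in EC 4 dpf replicate 1 (80.1 FPKM) lay inside the HSPC 4 dpf range.

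Gfi1b, which in zebrafish and mouse acts in HSPCs and red cell precursors, was spread over all sorts. In HSPC libraries gfi1b was at 5.74 and 7.43 FPKM (36 hpf), 13.2 and 18.8 (3 dpf), 95.2 and 119 (4 dpf) and 81.0 and 18.2 (3 mpf). In EC-labelled libraries gfi1b was at 20.6 and 15.9 FPKM (36 hpf), 47.1 and 41.0 (3 dpf) and 97.8 and 0 (4 dpf). In DN libraries gfi1b was at 3.89 and 2.04 FPKM (36 hpf), 39.1 and 30.9 (52 hpf), 0.406 and 2.61 (3 dpf), 3.66 and 4.47 (4 dpf) and 13.2 and 30.4 (3 mpf). The EC-labelled libraries lay above the HSPC libraries without overlap at 36 hpf and 3 dpf. Gfi1aa was low everywhere, at 0 to 4.52 FPKM in HSPC, 0 to 4.61 in EC-labelled and 1.82 to 5.61 in DN libraries, and all 11 neighbouring groups in its order overlapped.

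In HSPC libraries ikzf1 was at 7.15 and 5.37 FPKM (36 hpf), 55.8 and 55.3 (3 dpf), 55.0 and 34.8 (4 dpf) and 40.5 and 19.6 (3 mpf). In EC-labelled libraries ikzf1 was at 13.2 and 9.19 FPKM (36 hpf), 39.6 and 48.3 (3 dpf) and 48.8 and 0 (4 dpf). In DN libraries ikzf1 was at 1.12 and 1.19 FPKM (36 hpf), 6.66 and 4.13 (52 hpf), 0.771 and 0.206 (3 dpf), 2.46 and 5.06 (4 dpf) and 15.2 and 17.9 (3 mpf). Apart from EC 4 dpf replicate 2, each HSPC and EC-labelled library held more ikzf1 than both DN libraries of its stage. Ikzf1 in kidney DN libraries stood beside lymphocyte markers, of which all 7 were above 0 and summed to 242 and 150 FPKM, against 25.0 and 19.2 in kidney HSPC libraries, and their part in it was not tested.

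At 3 dpf most of these factors separated HSPC from DN libraries. Calls by limma needed an adjusted p (Benjamini-Hochberg, over all genes) under 0.05 together with a change of 1 or more in size on the log2(FPKM + 1) scale, and changes are given as ± standard error. In the fit of 24 libraries 5 of 9 were called, against 29.0% of the 21024 genes tested. Higher in HSPCs were 4 of them, as were 5.56% of genes: myb (5.91 ± 0.66, adjusted p = 1.5e-06), ikzf1 (5.27 ± 1.09, 0.000979), runx1 (4.55 ± 1.24, 0.00904) and gata2b (3.87 ± 0.64, 0.000115). Gata2a alone was lower (-2.29 ± 0.77, adjusted p = 0.0322 by limma), as were 23.5% of genes. In the fit of 22 libraries 8 of 9 were called, against 45.4% of genes, and 7 of these were higher, as were 14.1% of genes, with gfi1b (2.90 ± 0.56), lmo2 (2.30 ± 0.33) and tal1 (1.93 ± 0.38) added to the same 4, and gata2a was again lower. The median change of the 9 factors was 2.90, against -0.41 over all genes tested, or -0.67 after median-of-ratios scaling. Without DN 3 dpf replicate 2 the 24-library fit called 3 factors. In bulk samples, fewer cells of a type and less RNA per cell cannot be told apart.

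The EC-labelled libraries at 3 dpf were set against the same DN libraries. In the 24-library fit 5 of 9 factors were higher, as were 5.28% of genes: myb (5.67 ± 0.66), ikzf1 (4.93 ± 1.09), gfi1b (4.32 ± 1.30), runx1 (4.19 ± 1.24) and gata2b (1.84 ± 0.64), at adjusted p of 1.35e-05 to 0.0469 by limma. In the 22-library fit 7 were higher and gata2a was lower (-1.83 ± 0.39), among 38.9% of genes called. Without EC 3 dpf replicate 1 or 2 the 24-library fit called 2 factors, and without DN 3 dpf replicate 1 or 2 it called 3. Blood-wide markers, all 7 measured, moved with the factors: they summed to 574 and 765 FPKM in HSPC, 774 and 797 in EC-labelled and 40.2 and 42.3 in DN libraries at 3 dpf, with ptprc at 0 in DN replicate 2, and their part in the differences was not tested.

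**Figure D3:**
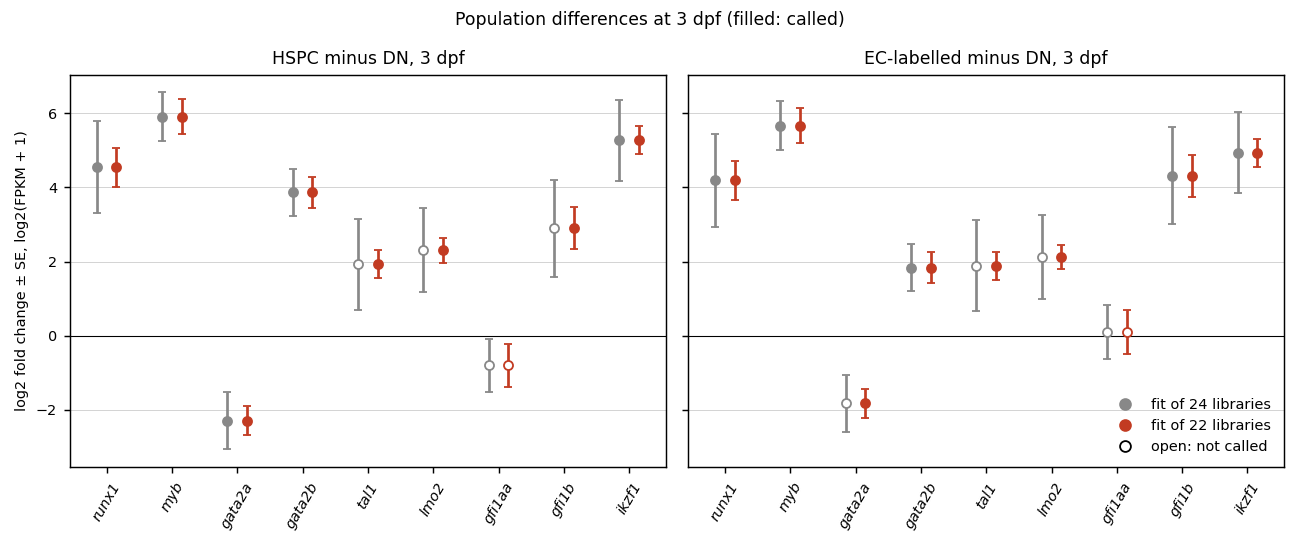
Log2 fold changes on the log2(FPKM + 1) scale, with standard errors from limma, are plotted for the 9 factors in HSPC minus DN (left) and EC-labelled minus DN (right) at 3 dpf. Grey points come from 24 libraries and red points from 22, filled where called: the estimates coincide, the errors shrink, and gata2a lies below 0 in both panels.

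Set against each other, HSPC and EC-labelled libraries at 3 dpf had few of these factors called. No factor was called in the 24-library fit by limma, against 0.866% of genes. Of the 9, 1 had an unadjusted p under 0.05, and limma-voom on recovered reads also called 0. In the 22-library fit gata2b was higher in HSPCs (2.03 ± 0.42, adjusted p = 0.00709 by limma), as were 0.553% of genes, at 9.56 and 23.8 FPKM in HSPC libraries against 2.25 and 3.81 in EC-labelled libraries. Myb (0.24 ± 0.47), runx1 (0.36 ± 0.53), ikzf1 (0.34 ± 0.37), lmo2 (0.17 ± 0.33) and tal1 (0.04 ± 0.38) had changes within 1 standard error of 0 in that fit. Gfi1b (-1.42 ± 0.56), gfi1aa (-0.90 ± 0.59) and gata2a (-0.47 ± 0.39) were lower in HSPCs by more than 1 standard error and were not called. A p that misses the threshold does not show that these levels were equal. Markers of other cell types differed between these libraries. The 6 neutrophil markers summed to 4541 and 4321 FPKM in HSPC and 11141 and 10543 in EC-labelled libraries at 3 dpf, the 8 erythroid markers to 655 and 712 against 4726 and 7179, and the 6 neural markers to 5.56 and 13.7 (1 and 2 of them at 0) against 91.1 and 149. Their part in these levels was not tested.

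At 36 hpf fewer factors were called between HSPC or EC and DN libraries than at 3 dpf, which is no test of a difference between the stages. Between HSPC and DN libraries the 24-library fit by limma called 0 of 9 factors, against 7.28% of genes, with 3 at an unadjusted p under 0.05 and 0 by limma-voom. The 22-library fit called 4, against 20.4% of genes: gata2b (1.46 ± 0.42), myb (1.75 ± 0.47) and ikzf1 (1.74 ± 0.37) were higher in HSPCs and gata2a was lower (-1.85 ± 0.39). Between EC and DN libraries the 24-library fit called 0 (3.33% of genes), with 2 at an unadjusted p under 0.05 and 0 by limma-voom. The 22-library fit called 4 higher in EC, as were 6.42% of genes: ikzf1 (2.48 ± 0.37), gfi1b (2.31 ± 0.56), lmo2 (1.65 ± 0.33) and myb (1.49 ± 0.47, adjusted p = 0.0498 by limma). Between HSPC and EC libraries 0 factors were called in the 24-library fit (1.36% of genes), 0 had an unadjusted p under 0.05 and limma-voom called 0, while the 22-library fit called lmo2 lower in HSPCs (-2.14 ± 0.33, adjusted p = 0.00167 by limma), as were 1.94% of genes. The 8 erythroid markers measured, all above 0, averaged 4.65 and 4.86 on the log2(FPKM + 1) scale in HSPC and 8.13 and 7.54 in EC libraries at 36 hpf, and their part in lmo2 was not tested. In HSPC, EC and DN libraries at 36 hpf blood-wide markers summed to 131 and 122, 191 and 250, and 40.2 and 34.7 FPKM. Neutrophil markers summed to 1009 and 788, 2217 and 3558, and 108 and 111 FPKM. Erythroid markers summed to 1078 and 1171, 14639 and 10627.5, and 4098 and 4336 FPKM. Endothelial markers summed to 9.68 and 7.32, 71.4 and 45.6, and 8.54 and 10.6 FPKM. The part of these cell types in the calls against DN was not tested.

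At 4 dpf the HSPC libraries were compared with DN libraries alone, since EC 4 dpf replicate 2 held so few genes. In the 24-library fit gfi1b (4.41 ± 1.30), myb (4.85 ± 0.66) and ikzf1 (3.29 ± 1.09) were higher in HSPCs and gata2a was lower (-3.19 ± 0.77), at adjusted p of 1.94e-05 to 0.0329 by limma. The gata2a value includes a 0 in HSPC replicate 2, and in the 22-library fit it was -1.75 ± 0.48 (adjusted p = 0.00954 by limma). These were 4 of 9 factors, against 24.7% of genes called. In the 22-library fit, where HSPC replicate 1 stands alone and is assumed to vary like the other groups, 8 were called (7 higher, 1 lower), against 33.7% of genes. In the 24-library fit without HSPC 4 dpf replicate 2 alone, myb stayed called, gata2b was newly called (2.33, adjusted p = 0.00821 by limma), and the calls of gata2a, gfi1b and ikzf1 were lost. Without HSPC 4 dpf replicate 1 the call of ikzf1 was lost and gfi1aa was newly called lower (-2.36, adjusted p = 0.0344 by limma). Without DN 4 dpf replicate 1 or 2 myb and gata2a stayed called and gfi1b and ikzf1 did not. Replicate 2 of HSPC held tal1, lmo2, gfi1b, myb and ikzf1 at 34.8 FPKM or more. In it runx1, gata2a, gata2b and gfi1aa were listed at 0. For counting error only, 3 reads each would allow up to 0.785, 0.120, 0.181 and 0.242 FPKM. These bounds do not cover transcripts lost before counting in this low-complexity library. Its 8 erythroid markers summed to 11765 FPKM, against 3337 in replicate 1.

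Several of these factors rose in HSPC libraries between 36 hpf and 3 dpf. In the 24-library fit myb (3.47 ± 0.66, adjusted p = 0.000767), lmo2 (3.50 ± 1.13, 0.0326) and gata2b (2.31 ± 0.64, 0.0136) were higher at 3 dpf by limma, 3 of 9, as were 2.52% of genes. The 22-library fit added tal1 (3.29 ± 0.38), ikzf1 (2.97 ± 0.37) and runx1 (2.66 ± 0.53), making 6 of 9, as were 11.7% of genes. Gata2a (0.28 ± 0.39), gfi1b (1.15 ± 0.56) and gfi1aa (-0.87 ± 0.59) were not called. The median change of the 9 was 2.66, against -0.31 over all genes, or -0.58 after median-of-ratios scaling. Without HSPC 36 hpf replicate 1, HSPC 36 hpf replicate 2 or HSPC 3 dpf replicate 2 the 24-library fit called 1 factor. Markers of other tissues moved the other way: epidermal markers summed to 162 and 158 FPKM at 3 dpf and 12556 and 13675 at 36 hpf in HSPC libraries, with 1 of 7 at 0 in replicate 1 at 3 dpf, and the 5 muscle markers to 0.772 and 3.68 FPKM at 3 dpf, with 3 at 0 in each library, and 1472 and 1691 at 36 hpf. The mitochondrial share of FPKM was 13.97% and 13.15% at 3 dpf and 25.16% and 25.38% at 36 hpf, and blood-wide markers summed to 574 and 765 FPKM at 3 dpf and 131 and 122 at 36 hpf. The part of these in the rise was not tested.

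The same stages were compared in EC-labelled and in DN libraries. In EC-labelled libraries myb alone was called in the 24-library fit (3.50 ± 0.66, adjusted p = 0.00155 by limma), as were 0.870% of genes. With 22 libraries 5 were called higher at 3 dpf, as were 7.12% of genes: myb, tal1 (2.72 ± 0.38), ikzf1 (1.89 ± 0.37), gata2b (1.30 ± 0.42) and lmo2 (1.19 ± 0.33). Endothelial markers summed to 71.4 and 45.6 FPKM in EC libraries at 36 hpf and 10.3 and 10.7 at 3 dpf, with clec14a at 0 in replicate 1. Blood-wide markers summed to 191 and 250 FPKM at 36 hpf and 774 and 797 at 3 dpf. Epidermal markers summed to 6538 and 8119 FPKM at 36 hpf and 320 and 339 at 3 dpf. The part of these in the changes was not tested. In DN libraries the 24-library fit by limma called 0 (4.63% of genes), 0 had an unadjusted p under 0.05 and limma-voom called 0, and the 22-library fit called runx1 lower at 3 dpf (-1.75 ± 0.53, adjusted p = 0.0421 by limma), as were 5.24% of genes.

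**Figure D4:**
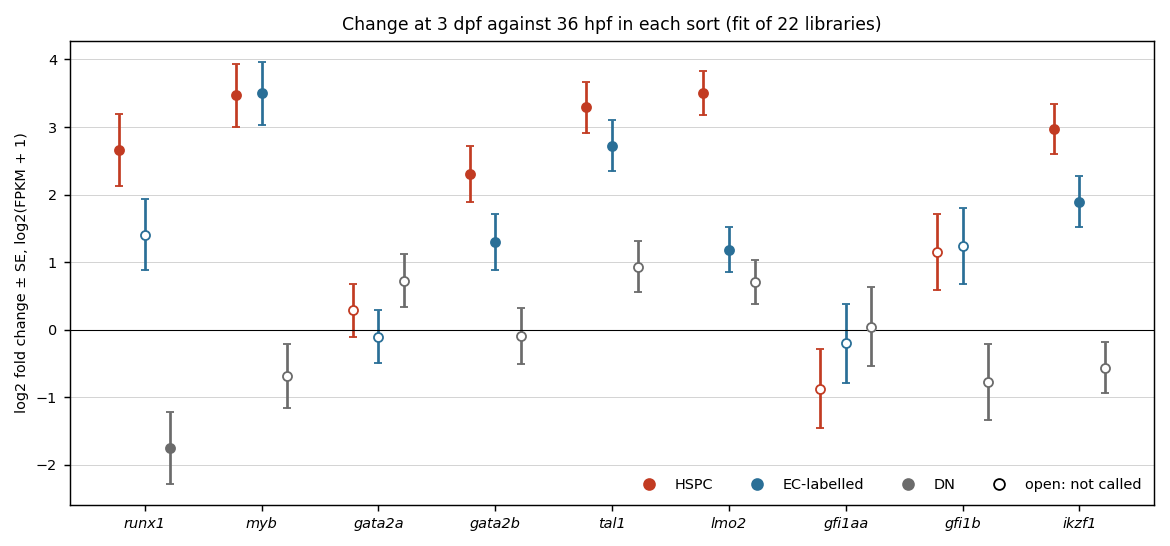
Log2 fold changes at 3 dpf against 36 hpf on the log2(FPKM + 1) scale, with standard errors from the 22-library fit by limma, are plotted for each factor in HSPC, EC-labelled and DN libraries, filled where called. Myb rose by about the same amount in HSPC and EC-labelled libraries (3.47 and 3.50), lmo2 rose by more in HSPCs (3.50 and 1.19), and no DN point above 0 is filled.

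The difference of these changes was itself tested. HSPC minus DN, myb rose by 4.15 ± 0.93 more on the log2 scale (adjusted p = 0.0059 by limma, 24 libraries), 1 of 9 factors, as were 1.27% of genes. With 22 libraries 6 had a larger rise in HSPCs, as were 9.10% of genes: runx1 (4.41 ± 0.75), myb, ikzf1 (3.53 ± 0.53), lmo2 (2.80 ± 0.46), gata2b (2.40 ± 0.59) and tal1 (2.36 ± 0.53). EC minus DN, myb rose by 4.18 ± 0.93 more (adjusted p = 0.0215 by limma, 24 libraries), against 0.143% of genes, and the 22-library fit called 4: myb, runx1, ikzf1 and tal1, against 4.54% of genes. Without any 1 of the 8 EC and DN libraries of 36 hpf and 3 dpf, that count fell to 0 in the 24-library fit. HSPC minus EC, the 24-library fit by limma called 0 (0.281% of genes), with 0 at an unadjusted p under 0.05 and 0 by limma-voom, and the 22-library fit called lmo2 (2.31 ± 0.46, adjusted p = 0.0135 by limma), as were 0.391% of genes.

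Between 3 and 4 dpf in HSPC libraries no factor was called by limma in the 24-library or the 22-library fit, against 0.176% and 0.787% of genes, and limma-voom called 0. Of the 9, 2 (gata2b and runx1) had an unadjusted p under 0.05 in the 24-library fit, both with replicate 2 listed at 0 at 4 dpf. Gfi1b had the largest change of the factors in the 22-library fit (2.52 ± 0.69), where HSPC 4 dpf replicate 1 stands alone. That replicate held gfi1b at 95.2 FPKM, against 13.2 and 18.8 at 3 dpf. The low-complexity replicate 2, left out of that fit, held 119 FPKM. In the 24-library fit without HSPC 4 dpf replicate 1, changes were -5.33 for runx1, -4.02 for gata2b and -2.91 for gata2a. All of these were listed at 0 in the low-complexity replicate 2, which then stood alone at 4 dpf.

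Between HSPC and DN libraries of the kidney at 3 mpf, few of the factors separated the sorts. The 24-library fit by limma called 0 of 9, against 7.60% of genes, with 2 at an unadjusted p under 0.05 and 0 by limma-voom, and without HSPC 3 mpf replicate 2 it called 1. The 22-library fit called 3 higher in HSPCs, as were 13.5% of genes: gata2b (1.92 ± 0.42), myb (1.62 ± 0.47) and gata2a (1.45 ± 0.39). For gata2b both DN libraries were listed at 0. Its mean of 2.84 FPKM in HSPCs was 15.7-fold the 0.180 FPKM that 3 reads per DN library would give. That figure allows for counting error in DN libraries only, and not for the spread of the HSPC libraries (3.55 and 2.13 FPKM). Gata2a was at 6.60 and 5.40 FPKM in kidney HSPC against 0.450 and 3.50 in kidney DN libraries, the reverse of the order in the tail at 36 hpf and 3 dpf. From HSPCs at 3 dpf to kidney HSPCs the median change of the 9 factors was -0.62. Over all genes tested it was 0.63, or 0.53 after median-of-ratios scaling, and 14.1% of genes were called higher. Kidney HSPCs held less gata2b than HSPCs at 3 dpf (-2.10 ± 0.64, adjusted p = 0.0341 by limma, 24 libraries), 1 factor, with 0.433% of genes lower. That call was lost without HSPC 3 dpf replicate 2 or without either HSPC 3 mpf replicate (adjusted p = 0.268, 0.0522 and 0.329 by limma, without 3 dpf replicate 2, 3 mpf replicate 1 and 3 mpf replicate 2). The 22-library fit added myb (-1.33 ± 0.47) and tal1 (-1.14 ± 0.38), 3 factors, with 2.19% of genes lower. Kidney DN libraries were higher than DN libraries at 3 dpf in ikzf1 (3.58 ± 1.09, adjusted p = 0.0157) and myb (2.95 ± 0.66, 0.00161) and lower in gata2a (-3.85 ± 0.77, 0.000669) by limma, 3 of 9 against 32.8% of genes, and the 22-library fit called 6, against 48.1%. Blood-wide markers summed to 1280 and 609 FPKM in kidney DN and 40.2 and 42.3 in DN libraries at 3 dpf, and their part in these changes was not tested. Age, organ, fish line and sort differ together between kidney and tail libraries and cannot be told apart.

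The DN sort at 52 hpf stood apart from its neighbours in lmo2 and gfi1b, and was compared with them after its values were seen. Lmo2 was at 54.2 and 41.6 FPKM at 52 hpf against 6.28 and 5.85 at 36 hpf, and gfi1b at 39.1 and 30.9 against 3.89 and 2.04. The 24-library fit by limma called 0 of 9 factors against 36 hpf (1.95% of genes), with 2 at an unadjusted p under 0.05 and 0 by limma-voom. The 22-library fit called gfi1b (3.21 ± 0.56), lmo2 (2.78 ± 0.33) and ikzf1 (1.54 ± 0.37) higher at 52 hpf and gata2a lower (-1.30 ± 0.39), 4 of 9 against 10.5% of genes. At 3 dpf against 52 hpf the 24-library fit called gfi1b lower (-3.99 ± 1.30, adjusted p = 0.0497 by limma), as were 3.91% of genes. That call was lost without any 1 of the 4 libraries. With 22 libraries 6 were called, against 28.7% of genes: gfi1b, lmo2 (-2.08 ± 0.33), ikzf1 (-2.10 ± 0.37) and runx1 (-1.76 ± 0.53) were lower at 3 dpf, and gata2a (2.02 ± 0.39) and tal1 (1.16 ± 0.38) were higher. Markers of several blood cell types were highest at 52 hpf among tail DN libraries, as were lmo2 and gfi1b. The 8 erythroid markers measured, all above 0, summed to 4098 and 4336 FPKM (36 hpf), 91293 and 83705 (52 hpf), 4438 and 8723 (3 dpf) and 12476 and 11112 (4 dpf). Gata1a, the red cell factor, was at 0.650 and 0.793 FPKM (36 hpf), 21.6 and 16.2 (52 hpf), 1.65 and 3.89 (3 dpf) and 9.72 and 5.16 (4 dpf). The 6 neutrophil markers summed to 108 and 111 FPKM (36 hpf), 1076 and 1660 (52 hpf), 94.2 and 177 (3 dpf) and 186 and 154 (4 dpf). The 7 thrombocyte markers, with itga2b or mpl at 0 in every library, summed to 50.7 and 55.0 FPKM (36 hpf), 283 and 303 (52 hpf), 21.2 and 30.0 (3 dpf) and 30.7 and 41.1 (4 dpf). At 52 hpf itga2b was at 0.0338 and 0.0156 FPKM and mpl at 0. The other thrombocyte markers thus made up the sums at 52 hpf. The part of these cell types in lmo2 and gfi1b was not tested.

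**Figure D5:**
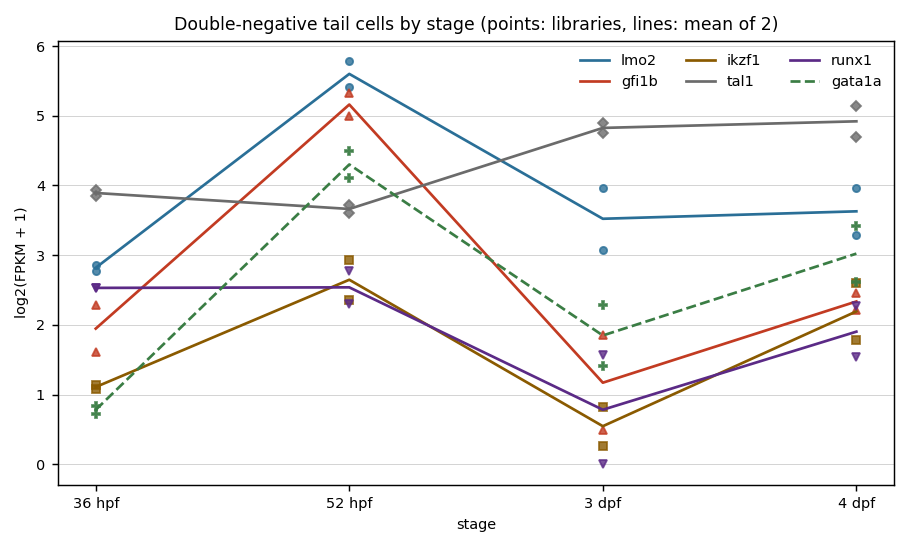
Tail DN libraries are plotted by stage as log2(FPKM + 1), with points for libraries and lines for the mean of 2. Lmo2, gfi1b and the erythroid gene gata1a (dashed) peak together at 52 hpf. Ikzf1, tal1 and runx1 are drawn as well, and the mean of tal1 is lowest at 52 hpf.

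Known partners and relatives of these factors were read as 6 lists set by name, beside 5.56% of all genes higher and 23.5% lower in HSPC against DN libraries at 3 dpf in the 24-library fit. Among 8 Runx and Myb relatives and partners tested in HSPC against DN libraries at 3 dpf, 3 were higher and 2 lower by limma in the 24-library fit. Cbfb, the subunit that Runx1 needs to bind DNA, was at 67.5 and 48.3 FPKM in HSPC against 1.70 and 1.37 in DN libraries (4.52 ± 0.95), while the corepressors cbfa2t2 (-3.69 ± 0.55) and runx1t1 (-2.53 ± 0.59) were lower. Of 12 Tal1 and Lmo2 complex partners tested, 0 were higher and 5 lower, among them the Lmo2-binding adaptor ldb1a at 14.1 and 20.3 FPKM in HSPC against 85.1 and 64.2 in DN libraries (-2.06 ± 0.76). With 22 libraries 1 of these 12 was higher, ssbp3a, and 8 were lower. In that fit 14.1% of all genes were higher and 31.3% lower. The median change was 0.72 for the first list and -1.73 for the second, against -0.41 over all genes tested.

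Of 8 GATA relatives and cofactors tested, 2 were higher and 4 lower in HSPCs at 3 dpf. Gata1b, a zebrafish copy of the red cell factor, was at 64.9 and 63.5 FPKM in HSPC against 1.14 and 0.456 in DN libraries (5.21 ± 0.88), and the GATA cofactor zfpm1 at 38.4 and 28.1 against 4.52 and 4.54 (2.61 ± 0.95). Gata3, a factor of lymphocytes and neurons, was called lower in the 22-library fit alone (-1.81 ± 0.39). Of 6 Gfi1 relatives and corepressor subunits, 1 was higher (gfi1ab) and 1 lower (rcor3), and of 3 Ikaros family genes IKZF2 was higher (1.94 ± 0.68) and ikzf5 lower (-3.64 ± 0.73). The abundant Gfi1 corepressor subunits hdac1 (0.46 ± 1.30) and kdm1a (-0.62 ± 1.12) were not called. Of 15 other blood stem and progenitor factors, 3 were higher and 3 lower: the Ets factors fli1a (4.68 ± 0.89), spi1a and spi1b (3.36 ± 0.91) were higher, and mecom, meis1b (-3.49 ± 0.84) and satb1a were lower. The medians of the GATA, Gfi1, Ikaros and other lists were -1.66, -0.08, -0.60 and 0.33. Shares called in lists this short are close to the 29.0% of all genes called in several cases, such as 2 of 6 Gfi1 genes, and nothing particular to a list is read from them.

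Across the 22 libraries the factors were compared by Pearson correlations of log2(FPKM + 1), over points that share sorts, stages and library totals. Ikzf1 ran with myb (r = 0.934) and runx1 (0.924), and myb with runx1 (0.913). Gfi1b ran with ikzf1 (0.819), lmo2 (0.808) and runx1 (0.720), and ikzf1 also with lmo2 (0.779), so these pairs form no separate sets. Gata2a ran against ikzf1 (-0.662), and the paralogs gata2a and gata2b were weakly related (-0.274). Of 13899 genes with a symbol and a group mean of at least 5 FPKM, the nearest to runx1 were the ribosomal protein gene rpl7 (0.946), its partner cbfb (0.945) and the translation factor gene eif3ha (0.938). Nearest to myb were nop58 (0.971), of the nucleolar RNA machinery, atic (0.969), of purine synthesis, and mybbp1a (0.967), which encodes a Myb-binding nucleolar protein. Neither cbfb nor mybbp1a was among the 3 nearest over all 24 libraries or by Spearman correlation. Nearest to ikzf1 were the leukocyte genes dock8 (0.974) and fermt3b (0.973), and blf (0.972).

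The genes nearest to lmo2 were fech (0.930), which encodes the last enzyme of heme synthesis, the erythropoietin receptor gene epor (0.922) and tmem120a (0.919). Nearest to gfi1b were snx5 (0.930), alad (0.930), an enzyme gene of heme synthesis, and tmem14ca (0.919). Tal1 was nearest to wdr43 (0.949), slc25a14 (0.938) and tomm40l (0.930), gata2b to eef2a.1 (0.904), ssbp3a (0.901) and pip5k1ba (0.900), and gata2a to st6gal2a (0.956), maml3 (0.954) and dpf2l (0.943). Gfi1aa had no gene above 0.774, the value for lysmd3, followed by nedd9 (0.769) and gna12a (0.754).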

How the data were processed

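Per the labels' protocols, poly(A) RNA from RNeasy columns went into NEBNext Ultra libraries. The authors deposited FPKM values for each gene. Tools listed by the submitters' processing notes are DESeq2, FastQC, HISAT and HTSeq, without roles, and the build is GRCz10. Versions and the filter behind the table were not stated in these sources. Whole reads were recovered from the FPKM steps (23718 of 23718 genes above 0 in at least 3 libraries were whole within 0.01 reads, which is 100% of them).

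The model was limma (version 3.58.1, R 4.3.3; lmFit, contrasts.fit and eBayes, trend on), run on log2(FPKM + 1) of the 21024 genes that reached 1 FPKM in 2 or more libraries, with 24 libraries, 12 group means and 12 residual degrees of freedom. The pseudocount understates changes of low genes. Adjusted p-values are Benjamini-Hochberg over all genes of a comparison. The 17 designed comparisons and 2 chosen after values were seen have the first group minus the second. The fit was also run on simulated data, in which no low-complexity library was simulated, so that run does not bear on their effect.

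The members, gene lists and markers were chosen with earlier results of these data known. Named beyond the members were up to 4 genes per related list, those with the highest mean, and the 3 genes most correlated with each member; gfi1ab, rcor3, spi1a, mecom, satb1a and ssbp3a were named after their values were seen. Of the related and marker names ldb1b, tcf4, ikzf3, etv6, hhex and hbae1.1 were not analysed here. Alternatives were another pseudocount, no filter, a replicate block, only the groups compared, median-of-ratios scaling, limma-voom on recovered reads, leaving out both low-complexity libraries and leaving out each replicate. Python 3.11.15, numpy 2.4.6, pandas 2.3.3 and matplotlib 3.10.9 were used elsewhere. No sequences or coordinates were used.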

Additional observations from a re-analysis of the deposited data

Results flagged for a closer look

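The rise of myb at 3 dpf against 36 hpf differed between sorts. It was larger in HSPC than in DN libraries by 4.15 ± 0.93 on the log2(FPKM + 1) scale (adjusted p = 0.0059 by limma, 24 libraries), with myb at 294 and 291 FPKM in HSPC libraries at 3 dpf and 31.4 and 20.7 at 36 hpf. It was larger in EC-labelled than in DN libraries by 4.18 ± 0.93 (adjusted p = 0.0215 by limma). In each case both later libraries of the sort stood above both earlier ones, and the same DN libraries serve both differences. The EC minus DN call was lost when any EC or DN library of 36 hpf or 3 dpf was left out. That call was also lost with the smaller pseudocount and by limma-voom. Kdrl was at 5.16 and 3.68 FPKM in EC libraries at 36 hpf and 0.333 and 0.323 at 3 dpf. The label EC was thus at odds with the data at 3 dpf.

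EC libraries at 4 dpf entered no comparison. Their lowest myb value was 184 FPKM, in replicate 1, above both DN libraries of that stage (6.25 and 9.50 FPKM). The low-complexity replicate 2 held myb at 197 FPKM while tal1 was at 0.217 FPKM and runx1, gata2a, gata2b, gfi1aa, gfi1b and ikzf1 were listed at 0.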

How the results depend on the processing

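Each factor called in the 24-library fit kept its direction in that comparison under every alternative run, while the number called moved. Tal1 and gfi1aa were called in no comparison of that fit, so their direction was not followed. Fitting only the groups compared or adding a replicate block leaves differences of group means unchanged and could not turn a direction. The same holds for leaving out both low-complexity libraries, except in comparisons with HSPC at 4 dpf. Most counts moved in the 22-library fit, without both low-complexity 4 dpf libraries, which called 4, 8, 8 and 3 in HSPC against DN libraries at 36 hpf, 3 dpf, 4 dpf and 3 mpf (24-library counts 0, 5, 4 and 0), 4 and 8 in EC against DN at 36 hpf and 3 dpf (0 and 5), and 1 and 1 in HSPC against EC at 36 hpf and 3 dpf (0 and 0). It called 6 in HSPC at 3 dpf against 36 hpf (3), 3 in HSPC at 3 mpf against 3 dpf (1), 5 in EC at 3 dpf against 36 hpf (1), 1 in DN at 3 dpf against 36 hpf (0), 6 in DN at 3 mpf against 3 dpf (3), 6, 4 and 1 in the differences of change HSPC minus DN, EC minus DN and HSPC minus EC (1, 1 and 0), 4 in DN at 52 against 36 hpf (0) and 6 in DN at 3 dpf against 52 hpf (1). Fits of only the groups compared called 4 and 8 in HSPC against DN at 36 hpf and 3 dpf, 5 and 8 in EC against DN, 2 in HSPC against EC at 36 hpf, 7, 7 and 1 in HSPC, EC and DN at 3 dpf against 36 hpf, 6 in DN at 3 mpf against 3 dpf, 6, 6 and 1 in the 3 differences of change, and 4 and 6 in the DN comparisons with 52 hpf. A pseudocount of 0.1 gave 2 in HSPC against DN at 4 dpf, 2 in EC against DN at 3 dpf, 1 in HSPC at 3 dpf against 36 hpf and 0 in HSPC at 3 mpf against 3 dpf, in EC minus DN and in DN at 3 dpf against 52 hpf. Limma-voom gave 0 in the last 3 of these as well. In DN at 3 dpf against 52 hpf no filter gave 0 and median-of-ratios scaling called 2. Apart from the removed libraries and the fewer samples fitted, the cause was not tested. Shares of all genes called are given for the 24-library and 22-library fits only. Counts from the other fits are therefore not read as particular to the factors.

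Leaving out 1 replicate of the groups compared gave 3 to 4 calls in HSPC against DN at 3 dpf, 2 to 4 at 4 dpf and 0 to 1 at 3 mpf, 2 to 3 in EC against DN at 3 dpf, 1 to 2 in HSPC at 3 dpf against 36 hpf, 0 to 3 at 4 against 3 dpf, 0 to 1 at 3 mpf against 3 dpf, 2 in DN at 3 mpf against 3 dpf, and 0 in EC minus DN and in DN at 3 dpf against 52 hpf. Other comparisons kept their count.

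Whether replicate numbers pair the samples is not given by the labels and was not settled. Replicate differences correlated at -0.338 (EC and DN at 3 dpf) to 0.268 (HSPC and DN at 3 mpf) across genes. The replicate block gave 0 calls in DN at 3 dpf against 52 hpf (1 without it) and changed no other count. With the DN numbers at 3 dpf crossed, chosen after seeing the data, 5 factors were called in EC against DN, as without it. Of the 3 genes named as nearest, 0 to 3 per factor were the same over all 24 libraries and 0 to 2 by Spearman correlation. Depth limits gata2b, gfi1aa and runx1 most, at medians of 10, 47 and 52 reads, and 2 libraries per group limit every call.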
